A study of Homo sapiens with 24 samples.

Results

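The 88 genes described here encode subunits of oxidative phosphorylation (OXPHOS) from the nuclear genome, or carry names that follow the same pattern. They were chosen by gene symbol, by a rule that used no measured value but was set with earlier results of these data known. The rule took the NDUFA, NDUFB, NDUFC, NDUFS and NDUFV genes of complex I, SDHA to SDHD of complex II and the UQCR genes of complex III. It also took the COX4 to COX8 genes with a letter A to C of complex IV, and the ATP5 genes of complex V. Of 29744 genes in the deposited tables, 90 matched, and 2 pseudogenes among them were left out. The remaining 88 divide into 41 for complex I, 4 for complex II, 9 for complex III, 15 for complex IV and 19 for complex V. Of these, 80 are subunit genes. The other 8 are 2 antisense RNAs (NDUFA6-AS1, NDUFB2-AS1), 2 read-through genes (NDUFC2-KCTD14, ATP5J2-PTCD1), 2 assembly or coupling factors (ATP5SL, ATP5S) and 2 copies or paralogs (UQCRHL, ATP5L2). Symbols are those of the tables, and 22 have since been renamed (ATP5A1 is now ATP5F1A, ATP5I is ATP5ME). COX4I1, CYC1 and NDUFAB1 fall outside the naming pattern, and the subunits encoded by mitochondrial DNA were not analysed here. A filter on low counts left 80 members in HCC1806 and 79 in MDA-MB-231. Left out in both lines were NDUFA4L2, NDUFA6-AS1, COX6A2, COX6B2, COX7A1, COX8C, ATP5L2 and ATP5J2-PTCD1, and in MDA-MB-231 also COX7B2. Of the 88, 48 have at least 1 pseudogene named after them in RefSeq, and 26 had estimated counts that were not whole in some library, so that reads of these genes may have been shared with copies.

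OXPHOS is the respiratory chain of the inner mitochondrial membrane together with ATP synthase. Complexes I and II pass electrons from NADH and succinate to ubiquinone, complex III passes them to cytochrome c, and complex IV to oxygen. Complexes I, III and IV pump protons, and complex V uses the proton gradient to make ATP. Many nuclear subunit genes have promoters bound by NRF1, by ETS-family factors such as GABP, or by YY1.

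Polyadenylated RNA of 2 established human lines of triple-negative breast cancer, HCC1806 (basal epithelial) and MDA-MB-231 (mesenchymal), was read by TAGseq, which sequences a tag near the 3′ end of each transcript. Each line was represented by 3 whole-genome-doubled populations and by the parental aneuploid cells kept as control. The doubled cells arose through fusion of cells, through slippage out of mitosis without division, or through failed cytokinesis. Doubled cells were isolated by flow sorting and expanded, and all cells received no further treatment and were sampled 48 hours after plating. Each of the 8 groups had 3 biological replicates, but each route gave 1 derived population per line, so that the route of doubling and the particular population cannot be told apart.

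The 24 libraries held 3060622 to 4030297 estimated counts in HCC1806 and 2455707 to 3837957 in MDA-MB-231, and the members made up 1.70% to 1.89% and 1.79% to 1.94% of these counts. Summed epithelial markers (KRT5, KRT14, CDH1, EPCAM, KRT6A) were at 1211 to 1474 CPM (counts scaled to a common library size) in HCC1806 and 10.4 to 20.3 CPM in MDA-MB-231. Summed mesenchymal markers (VIM, ZEB1, FN1, CDH2, SPARC) were at 31.0 to 65.6 CPM in HCC1806 and 3048 to 3494 CPM in MDA-MB-231, as the line labels give them. Of this list CDH2 went the other way, being higher in parental HCC1806 than in parental MDA-MB-231 (6.25 ± 0.25, log2, adjusted p = 1.1e-37). Of 6 immune markers, CD3E was at 0 in every library, and the sum, mostly CD68, was higher in every doubled MDA-MB-231 population (88.3 to 109 CPM in fusion, 112 to 114 in slippage, 110 to 124 in cytokinesis failure) than in control (68.9 to 78.1 CPM). In HCC1806 that sum was 34.7 to 37.8 CPM in fusion, 28.4 to 31.4 in slippage and 25.3 to 29.8 in cytokinesis failure, against 35.3 to 36.9 CPM in control. Summed fibroblast markers were at most 6.34 CPM, with COL1A2 at 0 throughout. Summed endothelial markers, with CDH5 at 0 throughout, were at most 0.522 CPM in HCC1806. In MDA-MB-231 they were at 4.75 to 7.9 CPM in fusion, 2.73 to 7.29 in slippage and 5.29 to 8.08 in cytokinesis failure, against 2.44 to 3.74 CPM in control, and PECAM1 was called in cytokinesis failure (1.49 ± 0.36, adjusted p = 0.00822). The part of cells with immune or endothelial markers in the results below was not tested. Replicate 3 of MDA-MB-231 slippage and replicate 1 of MDA-MB-231 cytokinesis failure differed more from their replicates than any other library, and values without both are given where they matter.

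In HCC1806, many OXPHOS transcripts were higher in fusion and cytokinesis-failure cells than in the parental cells, by small amounts, and fewer were higher in slippage cells. A gene is said to have risen, fallen or been called where the quasi-likelihood test of edgeR gave an adjusted p below 0.05 over all genes tested. Fold changes are given as log2 values ± standard error. In fusion-derived cells 31 of the 80 members tested rose and 1 fell (40.0%), where 10.9% of all 11467 genes were called. In cytokinesis-failure cells 26 rose and 2 fell (35.0%), against a background of 17%. In slippage cells 12 rose and none fell (15%, background 3.33%). With any single library left out, 18 of 32 calls held in fusion and 5 of 12 in slippage. In cytokinesis failure 16 of 28 held. By DESeq2 20 rose in fusion (background 6.54%) and 21 in cytokinesis failure (8.50%), and none fell. On the deposited TPM, as log2(TPM + 1), the calls were 13 higher and 1 lower in fusion (background 6.16%), 2 higher in slippage (0.767%) and 29 higher in cytokinesis failure (11.4%). In slippage 24 members were above and 6 below control at an unadjusted p below 0.05, and DESeq2 called 6 higher and 0 lower (background 1.61%).

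The members are abundant, and abundant genes were called more often than others. Their median over genes of the mean level was 160 CPM in HCC1806 and 154 CPM in MDA-MB-231, against 27.7 and 31.0 CPM for all genes tested. Among genes with a mean of at least 50 CPM, the share called was 20% in HCC1806 fusion, 27% in cytokinesis failure and 6.27% in slippage. The share of such genes that rose was 10.5%, 12.5% and 3.52% in the same order, against 38.8%, 32.5% and 15% of the members. The median fold change of the members was 0.13 in fusion, 0.09 in cytokinesis failure and 0.05 in slippage, where the median of all genes tested was -0.00308, 0.00162 and 0.00182. Estimates above 0 were seen for 64, 60 and 53 of 80 members in that order.

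In MDA-MB-231 the share of members called lay nearer that of other genes. In fusion-derived cells 12 of 79 members rose and 3 fell (19.0%), against 17.4% of all 11424 genes and 27.2% of genes with at least 50 CPM. In slippage cells 6 rose and 1 fell (8.86%), against 6.18% of all genes and 11% of the abundant ones; this count of 7 ran from 2 to 12 with single libraries left out, and limma on log2(TPM + 1) called 1. In cytokinesis-failure cells 2 fell and none rose (2.53%, background 4.64%, abundant genes 8.45%), with 4 members above and 8 below control at an unadjusted p below 0.05, and DESeq2 likewise called 0 higher and 2 lower. With any single library left out, 9 of 15 calls held in fusion, 2 of 7 in slippage and 0 of 2 in cytokinesis failure. The median fold change of the members was 0.08 in fusion, 0.05 in slippage and -0.02 after failed cytokinesis. The medians of all genes were -0.00251, 0.00135 and -0.00173. Without the 2 libraries that stood apart, 20 members rose and 4 fell in fusion (30.4%, background 21.7%), 8 rose and 1 fell in slippage (background 6.27%), and 5 fell in cytokinesis failure (background 5.85%). The fusion median depended on scale, being 0.08 with TMM-scaled counts and -0.04 on the deposited TPM as log2(TPM + 1), where 3 members rose, 6 fell and the median of all genes was itself -0.105.

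**Figure D1:**
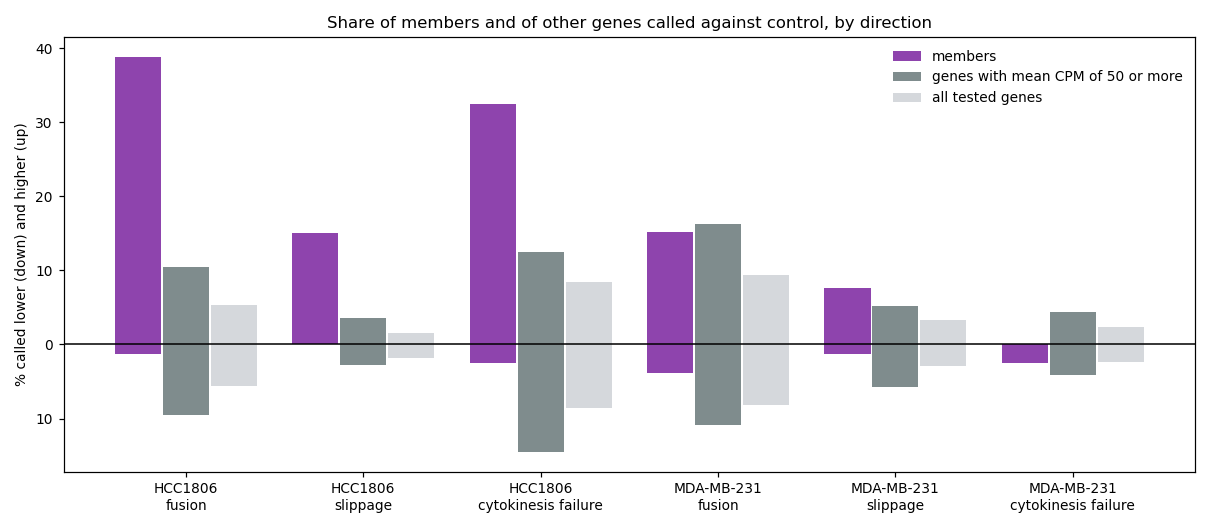
Share of genes called higher (bars above 0) and lower (bars below 0) in each doubled population against its control, in percent, for the OXPHOS members, for genes with a mean of at least 50 CPM and for all genes tested. The members' bars stand above both backgrounds on the higher side in the 3 HCC1806 populations (38.8%, 15% and 32.5%), and nearer the abundant genes in MDA-MB-231 fusion (15.2% against 16.2%) and slippage (7.59% against 5.21%).

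Summed over the members of each complex, the HCC1806 levels separated the doubled from the parental libraries in most cases. The sums follow the naming rule, so they include the few members that are not subunit genes, and NDUFA4 counts with complex I. With subunit genes alone and NDUFA4 moved to complex IV, a choice made after seeing the data, complex IV in HCC1806 cytokinesis failure overlapped control (105% of it), and all other HCC1806 sums kept their side. Levels here are TMM-scaled CPM, and since they are shares of a library, more RNA of a gene per cell and a larger share at an unchanged amount cannot be told apart, nor can changes per cell from changes in the make-up of the population. In fusion the largest shift was that of complex III, which stood at 3143 ± 103 in fusion, 2808 ± 32.5 in slippage and 2867 ± 78.9 after failed cytokinesis, against 2655 ± 69.8 in control (SD, n = 3 each), or 118%, 106% and 108% of control. Complex I stood at 6506 ± 149, 6342 ± 95.4 and 6360 ± 123 in the same order, against 6012 ± 81.3 in control. Complex V stood at 5489 ± 106, 5297 ± 31.2 and 5425 ± 116, against 4997 ± 68.8 in control. In these 3 complexes no doubled library overlapped the controls, though on TPM complex I in fusion and complexes I, III and V in slippage did. Complex IV was at 3195 ± 75.3 in fusion and 3130 ± 91.4 in cytokinesis failure, both apart from the controls at 2941 ± 59.5, while slippage at 2911 ± 123 overlapped them. Complex II, the smallest sum, was apart from control (415 ± 10.7) only in cytokinesis failure (447 ± 4.60), and overlapped it in fusion (427 ± 4.39) and slippage (429 ± 14.2).

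In MDA-MB-231 the sum of all members was 19300 ± 304 in fusion, 19113 ± 174 in slippage and 18152 ± 49.9 after failed cytokinesis, against 18468 ± 251 in control. In fusion and slippage the largest shift was that of complex IV, at 3551 ± 113 in fusion and 3526 ± 71.7 in slippage, both apart from control (3281 ± 88.5), whereas cytokinesis failure at 3216 ± 112 overlapped it; on TPM all 3 overlapped control. Complex I was at 5796 ± 66.1 and 5733 ± 52.4 in fusion and slippage, apart from control at 5532 ± 61.4. Complex V was lower than control in every cytokinesis-failure library (5909 ± 53.1, against 6039 ± 92.0 in control). The fusion difference of this line is not firm, since the sum of all members in fusion was 105% of control with TMM scaling, 101% with plain library totals (overlapping control) and 98.3% on TPM, where complexes I and III were 97.4% and 94.2% of control without overlap. On log2(TPM + 1) the median fold change of all genes tested was itself -0.105 in this comparison, so these sums are no sign of a decrease particular to the members. Complex I in slippage and complex V in cytokinesis failure also overlapped control on TPM.

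**Figure D2:**
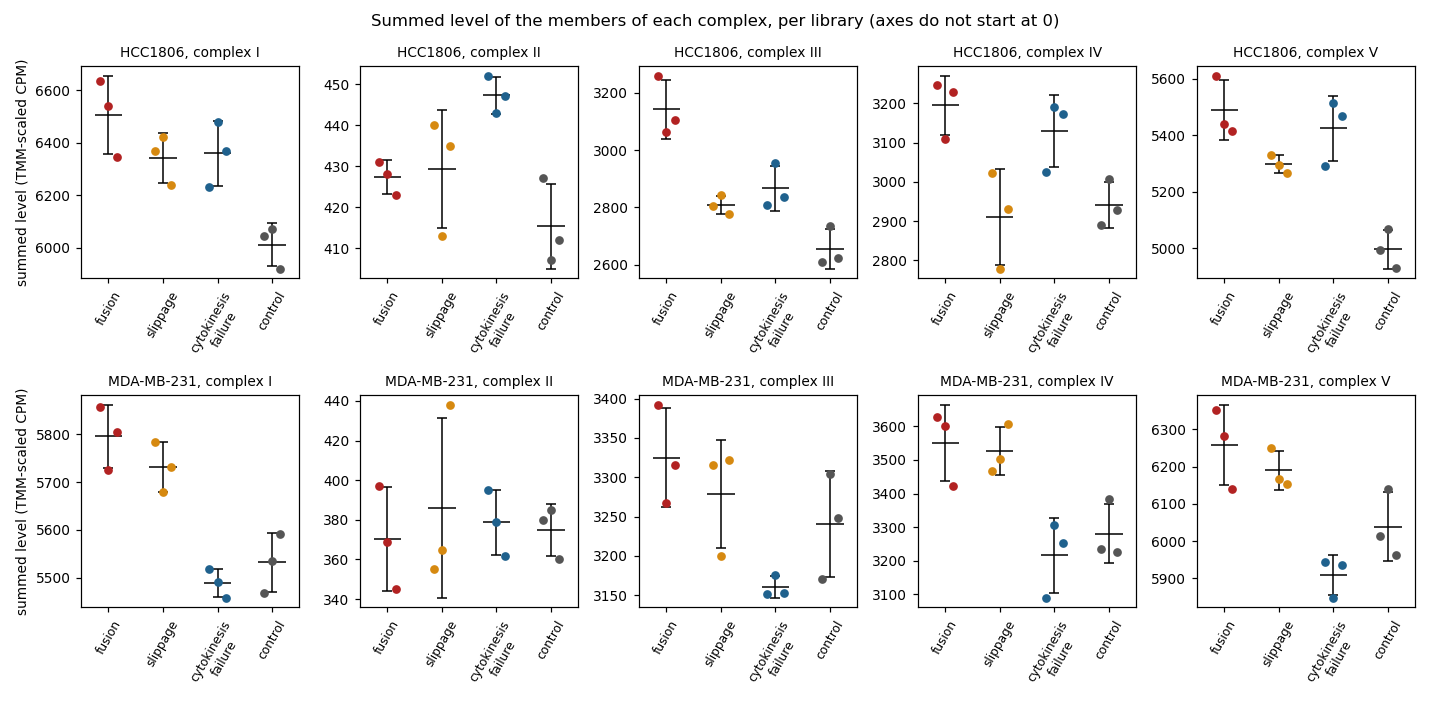
Summed level of the members of each complex in every library, in TMM-scaled CPM, by population and line; points are libraries, bars the mean ± SD of 3, and the vertical axes do not start at 0. In HCC1806 all doubled libraries lie above the controls for complexes I, III and V, with fusion highest for complex III at 3143 CPM on average.

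Promoters are shown for the member with the smallest adjusted p of each complex in HCC1806 fusion (NDUFB10, SDHD, UQCRFS1, COX5B and ATP5E) and for the leading pair in MDA-MB-231 fusion (COX7B and NDUFA1), so that the start regions of the members the results turn on can be read beside their values. Sequences are the 150 bases just before the annotated start of the gene, 5′ to 3′ on the gene's strand, from RefSeq on GRCh38.p14. Capitals mark matches on either strand to the NRF1 motif (GCGCA followed directly by its reverse complement), to CCGGAAG (an ETS core) or to AAGATGGCG (the YY1 motif). NDUFB10 lies at chr16:1959388-1959537, SDHD at chr11:112086723-112086872, COX5B at chr2:97645912-97646061, COX7B at chrX:77899318-77899467 and NDUFA1 at chrX:119871682-119871831, all on the plus strand. UQCRFS1 lies at chr19:29213152-29213301 and ATP5E at chr20:59032336-59032485, both on the minus strand.
NDUFB10: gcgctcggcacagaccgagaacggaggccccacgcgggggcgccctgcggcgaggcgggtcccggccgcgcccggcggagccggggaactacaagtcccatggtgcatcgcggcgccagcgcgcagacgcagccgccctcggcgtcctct
SDHD: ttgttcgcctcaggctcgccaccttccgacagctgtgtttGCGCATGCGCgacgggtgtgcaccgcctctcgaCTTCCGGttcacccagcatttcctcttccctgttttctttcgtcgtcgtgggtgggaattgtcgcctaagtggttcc
UQCRFS1: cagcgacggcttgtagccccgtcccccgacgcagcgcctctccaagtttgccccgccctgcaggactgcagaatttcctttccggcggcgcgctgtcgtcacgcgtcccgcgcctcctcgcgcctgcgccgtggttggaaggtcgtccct
COX5B: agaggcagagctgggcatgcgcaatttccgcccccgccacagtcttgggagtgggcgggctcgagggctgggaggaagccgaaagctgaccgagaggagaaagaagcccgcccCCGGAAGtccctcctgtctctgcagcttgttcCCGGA
ATP5E: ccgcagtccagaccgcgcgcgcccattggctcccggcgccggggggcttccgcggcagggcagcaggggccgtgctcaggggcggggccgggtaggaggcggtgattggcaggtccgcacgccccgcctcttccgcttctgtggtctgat
COX7B: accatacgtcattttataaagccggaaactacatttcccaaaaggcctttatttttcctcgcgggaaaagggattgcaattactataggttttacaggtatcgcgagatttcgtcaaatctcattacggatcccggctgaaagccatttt
NDUFA1: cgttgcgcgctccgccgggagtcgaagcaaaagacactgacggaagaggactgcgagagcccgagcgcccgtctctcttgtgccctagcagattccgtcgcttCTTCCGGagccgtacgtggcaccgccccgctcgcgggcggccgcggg
SDHD holds the NRF1 motif 110 bases and an ETS core 77 bases before the start. In NDUFA1 the ETS core lies at 47 bases. In COX5B it lies at 37 bases, and a second match at 5 bases runs past the printed end. NDUFB10, UQCRFS1, ATP5E and COX7B hold no match to the 3 motifs in the window from 250 bases before to 50 after the start. Over such windows RefSeq gave a sequence for 67 of the 80 subunits. The ETS core was in 18 of them (26.9%), against 14.2% of 15843 protein-coding genes. The NRF1 motif was in 4 (5.97%, against 1.75%) and the YY1 motif in 8 (11.9%, against 2.74%). Both strands were searched, and the end of CCGGAAG can overlap the start of AAGATGGCG. A match is a run of letters and no measure of binding, and no relation between matches and changes in level was tested.

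Complex I, the NADH dehydrogenase, has 39 of the 80 members tested in HCC1806 and gave the most called members there. In fusion 13 rose and 1 fell, in slippage 7 rose, and in cytokinesis failure 11 rose and 1 fell. For comparison with each complex, 5.33%, 1.53% and 8.37% of all genes tested rose in these populations, in the same order. Of genes with at least 50 CPM, 10.5%, 3.52% and 12.5% rose. NDUFV1, the flavoprotein that takes electrons from NADH (chr11:67606936-67612554 on GRCh38), had 111, 122 and 113 CPM in fusion, 112, 116 and 115 in slippage and 117, 124 and 107 in cytokinesis failure, against 86.8, 84.5 and 89.2 CPM in control. Every doubled library was above every control. The fold changes were 0.41 ± 0.068 in fusion (adjusted p = 4.78e-06), 0.39 ± 0.068 in slippage (4.15e-05) and 0.41 ± 0.067 in cytokinesis failure (1.06e-06), and these 3 calls held with any single library left out and under each other setting tried.

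NDUFB10, an accessory subunit of the membrane arm, behaved alike, with 311, 288 and 265 CPM in fusion, 284, 281 and 280 in slippage and 288, 297 and 271 in cytokinesis failure, against 248, 208 and 222 CPM in control. The groups did not overlap, and the changes were 0.35 ± 0.054, 0.32 ± 0.054 and 0.33 ± 0.053 (largest adjusted p = 4.15e-05). The accessory subunit NDUFA5 had 125, 121 and 111 CPM in fusion, 118, 114 and 120 in slippage and 114, 112 and 109 in cytokinesis failure, against 91.2, 100 and 92.3 CPM in control, and rose by 0.34 ± 0.067, 0.31 ± 0.067 and 0.24 ± 0.066. Also called higher in all 3 HCC1806 populations were the accessory subunits NDUFA11 (0.28 ± 0.067, 0.34 ± 0.066 and 0.26 ± 0.065), NDUFA2 (0.25 ± 0.069, 0.24 ± 0.069 and 0.37 ± 0.067) and NDUFS5 (0.21 ± 0.039, 0.14 ± 0.039 and 0.14 ± 0.039). NDUFS5 is abundant, at 747, 702 and 690 CPM in fusion, 681, 695 and 666 in slippage and 649, 719 and 678 in cytokinesis failure, against 614, 645 and 593 CPM in control. The members that fell in complex I were few. NDUFS6, an accessory subunit of the NADH-oxidising arm, had 339, 334 and 324 CPM in fusion, against 362, 365 and 359 CPM in control (-0.12 ± 0.043, adjusted p = 0.0473), and the core subunit NDUFS3 had 85.7, 91.5 and 91.2 CPM in cytokinesis failure, against 106, 103 and 96.7 CPM in control (-0.19 ± 0.067, adjusted p = 0.0409). Neither of these 2 calls held with every library left out in turn.

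Of the complex I members called in MDA-MB-231 fusion or slippage, NDUFA1 was also called in HCC1806 fusion. NDUFA1, a small membrane-arm subunit (chrX:119871832-119876662, promoter above), had 144, 145 and 145 CPM in fusion, 108, 125 and 131 in slippage and 114, 100 and 85.7 in cytokinesis failure, against 101, 97.9 and 98.6 CPM in control. Fusion and slippage libraries lay above the controls, and cytokinesis failure on both sides of them. NDUFA1 rose by 0.55 ± 0.078 in fusion (adjusted p = 1.47e-06) and by 0.29 ± 0.079 in slippage (adjusted p = 0.0176). NDUFB2 had 206, 189 and 180 CPM in fusion, 194, 196 and 186 in slippage and 143, 159 and 154 in cytokinesis failure, against 148, 160 and 158 CPM in control (0.30 ± 0.065 and 0.30 ± 0.064 in fusion and slippage, adjusted p = 0.000784 and 0.00172). The strand setting of the counting is not given in the sources used here, so reads of NDUFB2 and its antisense gene NDUFB2-AS1 cannot be told apart. NDUFC1 rose in fusion by 0.36 ± 0.083 (adjusted p = 0.00138), with 107, 88.2 and 96.2 CPM, against 78.7, 74.1 and 73.4 CPM in control.

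NDUFB11, a membrane-arm subunit, was the clearest decrease in MDA-MB-231 after cytokinesis failure, with 101, 113 and 113 CPM, against 123, 139 and 147 CPM in control (-0.32 ± 0.075, adjusted p = 0.00627), though the call did not survive each library being left out. NDUFV1 and NDUFB10, the leading complex I members of HCC1806, were not called in MDA-MB-231. NDUFV1 had 73.1, 75.7 and 90.6 CPM in fusion, 86.3, 79.4 and 53.2 in slippage and 81.1, 79.5 and 99.9 in cytokinesis failure, against 78.1, 101 and 95.9 CPM in control, and its replicates overlapped throughout.

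Complex II, succinate dehydrogenase, is also an enzyme of the citric acid cycle and has 4 subunits, all encoded in the nucleus. SDHD alone was called, in HCC1806, with 128, 132 and 127 CPM in fusion, 137, 115 and 138 in slippage and 135, 142 and 129 in cytokinesis failure, against 116, 103 and 111 CPM in control. It rose by 0.23 ± 0.067 (adjusted p = 0.0120), 0.24 ± 0.066 (0.0195) and 0.30 ± 0.065 (0.000303). The lowest slippage library lay just below the highest control. SDHD reads may be shared with its 7 annotated pseudogenes, and its estimated counts were not whole in 3 libraries. The catalytic subunit SDHA (-0.17 ± 0.081 in HCC1806 fusion) and the iron-sulfur subunit SDHB (0.06 ± 0.084) did not pass the test there.

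Complex III, the cytochrome bc1 complex, held the member with the smallest adjusted p in HCC1806 fusion. UQCRFS1, the Rieske iron-sulfur protein (chr19:29205320-29213151), had 401, 376 and 389 CPM in fusion, 282, 272 and 267 in slippage and 260, 259 and 270 in cytokinesis failure, against 268, 281 and 282 CPM in control. Only the fusion libraries stood apart, and the rise was 0.49 ± 0.045 (adjusted p = 2.12e-14). Fusion exceeded slippage by 0.51 ± 0.046 (adjusted p = 2.61e-15) and cytokinesis failure by 0.57 ± 0.045 (adjusted p = 1.86e-18). In MDA-MB-231 UQCRFS1 had 280, 262 and 242 CPM in fusion, 247, 243 and 265 in slippage and 231, 225 and 233 in cytokinesis failure, against 243, 273 and 253 CPM in control, and was not called in any population.

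UQCR11, a small subunit, had 501, 464 and 468 CPM in HCC1806 fusion, 399, 422 and 415 in slippage and 392, 433 and 403 in cytokinesis failure, against 375, 393 and 371 CPM in control. All doubled libraries exceeded the controls apart from 1 cytokinesis-failure library just below the highest control, and the call was made in fusion (0.33 ± 0.043, adjusted p = 3.81e-09). UQCRB, which lies at the ubiquinone site, was called in all 3 (0.24 ± 0.045, 0.15 ± 0.045 and 0.17 ± 0.045, adjusted p = 0.000110, 0.0471 and 0.00585), with the slippage call near the threshold. In cytokinesis failure the core protein UQCRC2 had 167, 171 and 168 CPM, against 136, 154 and 134 CPM in control (0.26 ± 0.061, adjusted p = 0.000973), and UQCR10 rose by 0.20 ± 0.048 (adjusted p = 0.00136). UQCRQ rose in fusion in both lines, with 560, 537 and 540 CPM in HCC1806 fusion, against 446, 494 and 483 CPM in HCC1806 control (0.20 ± 0.041, adjusted p = 0.000131). In MDA-MB-231 it had 602, 573 and 604 CPM in fusion, against 512, 551 and 531 CPM in control (0.16 ± 0.048, adjusted p = 0.0169).

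Complex IV, cytochrome c oxidase, held fewer called members in HCC1806, with 3 of 11 higher in fusion and 2 higher and 1 lower in cytokinesis failure. COX5B, a nuclear subunit on the matrix side (chr2:97646062-97648383), had 327, 329 and 317 CPM in fusion, 292, 286 and 306 in slippage and 318, 358 and 325 in cytokinesis failure, against 262, 266 and 280 CPM in control. All doubled libraries were above control. COX5B rose in fusion (0.27 ± 0.047, adjusted p = 1.32e-05) and cytokinesis failure (0.31 ± 0.047, adjusted p = 2.32e-07). In MDA-MB-231 it went the other way in fusion, with 311, 326 and 285 CPM in fusion, against 341, 372 and 367 CPM in control (-0.23 ± 0.062, adjusted p = 0.00775).

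COX7B, another small subunit (chrX:77899468-77907376), rose in fusion in both lines. MDA-MB-231 had 200, 182 and 184 CPM in fusion, 156, 164 and 169 in slippage and 134, 130 and 136 in cytokinesis failure, against 135, 138 and 127 CPM in control. Fusion libraries were the highest, slippage next and both apart from control, with changes of 0.50 ± 0.065 (adjusted p = 1.81e-07) and 0.29 ± 0.065 (adjusted p = 0.00341). In HCC1806 the values were 208, 195 and 204 CPM in fusion, against 168, 187 and 163 CPM in control (0.23 ± 0.058, adjusted p = 0.00261).

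Several complex IV subunits have tissue-specific or accessory forms. The ubiquitous COX7A2 rose in HCC1806 fusion (0.20 ± 0.046) and cytokinesis failure (0.18 ± 0.046) and in MDA-MB-231 slippage (0.16 ± 0.045), where it had 644, 624 and 640 CPM, against 561, 586 and 562 CPM in control. None of these COX7A2 calls held with every library left out in turn. COX7A2L, which takes part in joining complexes III and IV into supercomplexes, rose in MDA-MB-231 fusion, with 85.9, 85.5 and 76.6 CPM, against 50, 62.9 and 63.7 CPM in control (0.49 ± 0.094, adjusted p = 0.000169). In HCC1806 cytokinesis failure COX7A2L fell, with 82.2, 78.0 and 100 CPM, against 93.1, 107 and 101 CPM in control (-0.20 ± 0.073, adjusted p = 0.0444), a call that did not hold with every library left out. COX8A rose in MDA-MB-231 fusion (0.28 ± 0.058, adjusted p = 0.000590), with 623, 555 and 536 CPM, against 466, 482 and 464 CPM in control. NDUFA4, first counted with complex I and now held to be a complex IV subunit, rose in MDA-MB-231 fusion (0.26 ± 0.070, adjusted p = 0.00843) and was within 0.05 of control in the HCC1806 populations. The NDUFA4 call did not hold with every library left out in turn. COX6A1 and COX6B1 were not called against control in either line, with estimates from -0.06 to 0.09 and from -0.12 to 0.11. The heart and muscle forms COX6A2 and COX7A1 and the testis form COX8C were at 0 in every library, NDUFA4L2 had at most 1 count and COX6B2 1 to 5 counts in HCC1806 and at most 1 in MDA-MB-231, so that none was tested.

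Complex V, the ATP synthase, had 8 of 17 tested members higher in HCC1806 fusion, 3 in slippage and 8 in cytokinesis failure. ATP5A1, the catalytic-head alpha subunit (chr18:46080248-46104227), had 323, 317 and 322 CPM in fusion, 319, 325 and 316 in slippage and 331, 348 and 327 in cytokinesis failure, against 294, 290 and 276 CPM in control. All doubled HCC1806 libraries were above control, and the changes were 0.16 ± 0.045 (adjusted p = 0.00949), 0.16 ± 0.045 (0.0307) and 0.23 ± 0.045 (7.53e-05). In MDA-MB-231 the order was reversed, with 479, 441 and 460 CPM in fusion, 464, 472 and 485 in slippage and 496, 507 and 513 in cytokinesis failure, against 520, 543 and 523 CPM in control. Every doubled library was below every control there, and the call was made in fusion (-0.20 ± 0.048, adjusted p = 0.00229) and slippage (-0.16 ± 0.047, adjusted p = 0.0349).

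ATP5E, the small epsilon subunit of the central stalk, rose in all HCC1806 populations and in MDA-MB-231 slippage. HCC1806 had 1236, 1165 and 1152 CPM in fusion, 1147, 1142 and 1123 in slippage and 1103, 1203 and 1172 in cytokinesis failure, against 999, 1058 and 1006 CPM in control (0.22 ± 0.035, 0.16 ± 0.035 and 0.18 ± 0.035). MDA-MB-231 slippage had 1325, 1281 and 1296 CPM, against 1172, 1190 and 1183 CPM in control (0.14 ± 0.040, adjusted p = 0.0261). ATP5E counts were not whole in any of the 24 libraries, so that some of its reads were shared out between genes. ATP5D, the delta subunit of the same stalk, had 168, 154 and 155 CPM in HCC1806 fusion, 128, 155 and 155 in slippage and 149, 165 and 138 in cytokinesis failure, against 118, 106 and 128 CPM in control, and rose by 0.44 ± 0.073, 0.31 ± 0.074 and 0.36 ± 0.073.

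ATP5I, a membrane-part subunit involved in pairing ATP synthases, had 581, 539 and 520 CPM in HCC1806 fusion and 513, 533 and 508 in cytokinesis failure, against 457, 474 and 468 CPM in control (0.23 ± 0.041 and 0.15 ± 0.041). In MDA-MB-231 it had 760, 799 and 817 CPM in fusion and 644, 637 and 657 in cytokinesis failure, against 720, 735 and 713 CPM in control. There fusion rose (0.13 ± 0.044, adjusted p = 0.0328) and cytokinesis failure fell (-0.16 ± 0.045, adjusted p = 0.0241), and the decrease was lost in some fits with a library left out. ATP5L, a neighbour of ATP5I in the membrane part, had 450, 435 and 427 CPM in MDA-MB-231 fusion and 418, 400 and 420 in slippage, against 381, 356 and 361 CPM in control (0.26 ± 0.050 and 0.17 ± 0.050). It rose in HCC1806 fusion as well (0.15 ± 0.038, adjusted p = 0.00311). Of the 3 genes for the same membrane ring subunit c, ATP5G1 rose in HCC1806 fusion (0.16 ± 0.056) and cytokinesis failure (0.20 ± 0.055), ATP5G2 rose in MDA-MB-231 fusion (0.25 ± 0.069), and ATP5G3 was not called against control, with estimates from -0.16 to -0.02. Neither the ATP5G1 calls nor that of ATP5G2 held with every library left out in turn. The inhibitor of the complex, ATPIF1, is outside the naming pattern and rose in HCC1806 cytokinesis failure alone among the 6 comparisons with control (0.18 ± 0.061, adjusted p = 0.0327).

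**Figure D3:**
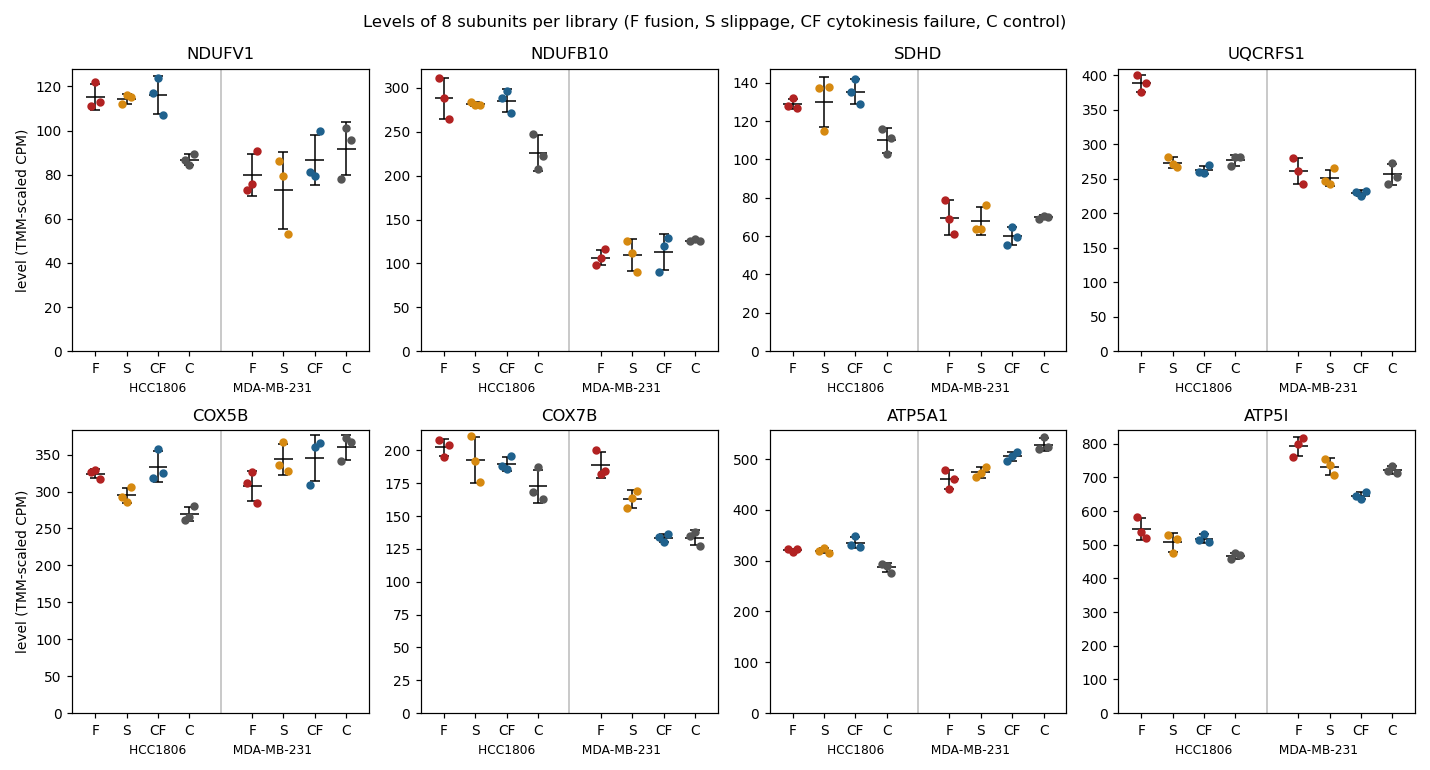
Level of 8 subunits in every library, in TMM-scaled CPM, with fusion, slippage and cytokinesis failure left of control in each line; points are libraries and bars the mean ± SD of 3. UQCRFS1 is raised in HCC1806 fusion only, NDUFV1, NDUFB10 and ATP5A1 in all 3 HCC1806 populations, and COX7B most in MDA-MB-231 fusion (200, 182 and 184 CPM).

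Across the populations of a line, 11 members were called higher in all 3 HCC1806 populations, which share their control libraries: NDUFA2, NDUFA5, NDUFA11, NDUFB10, NDUFS5, NDUFV1, SDHD, UQCRB, ATP5A1, ATP5D and ATP5E. Over all genes tested 0.680% were higher in all 3, and 1.67% of those with at least 50 CPM. Of the 11, the slippage call held with any single library left out for NDUFA5, NDUFA11, NDUFB10, NDUFV1 and ATP5E. A further 10 were higher in 2 populations, 16 in 1 and 43 in none. In MDA-MB-231 NDUFA1, NDUFB2, COX7B and ATP5L were called higher in fusion and slippage, ATP5A1 lower in both, and no member was called in all 3 populations. Of these slippage calls, those of NDUFB2 and COX7B alone held with any single library left out. Between lines, NDUFA1, UQCRQ, COX7B, ATP5I and ATP5L rose in fusion in both and ATP5E in slippage in both. Of these, COX7B and ATP5L held in both lines with any single library left out. Lost with some library left out were NDUFA1 in HCC1806 fusion, UQCRQ and ATP5I in MDA-MB-231 fusion and ATP5E in MDA-MB-231 slippage. Opposite calls were made for COX5B and ATP5A1 in fusion, ATP5A1 in slippage and ATP5I in cytokinesis failure. In each of these 4 cases at least 1 of the opposite calls was lost with some library left out: COX5B in MDA-MB-231 fusion, ATP5A1 in HCC1806 fusion and in slippage of both lines, and ATP5I in MDA-MB-231 cytokinesis failure. The share of all genes with such overlaps, between lines or between MDA-MB-231 fusion and slippage, is not given here. These overlaps are therefore not read as particular to the members.

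**Figure D4:**
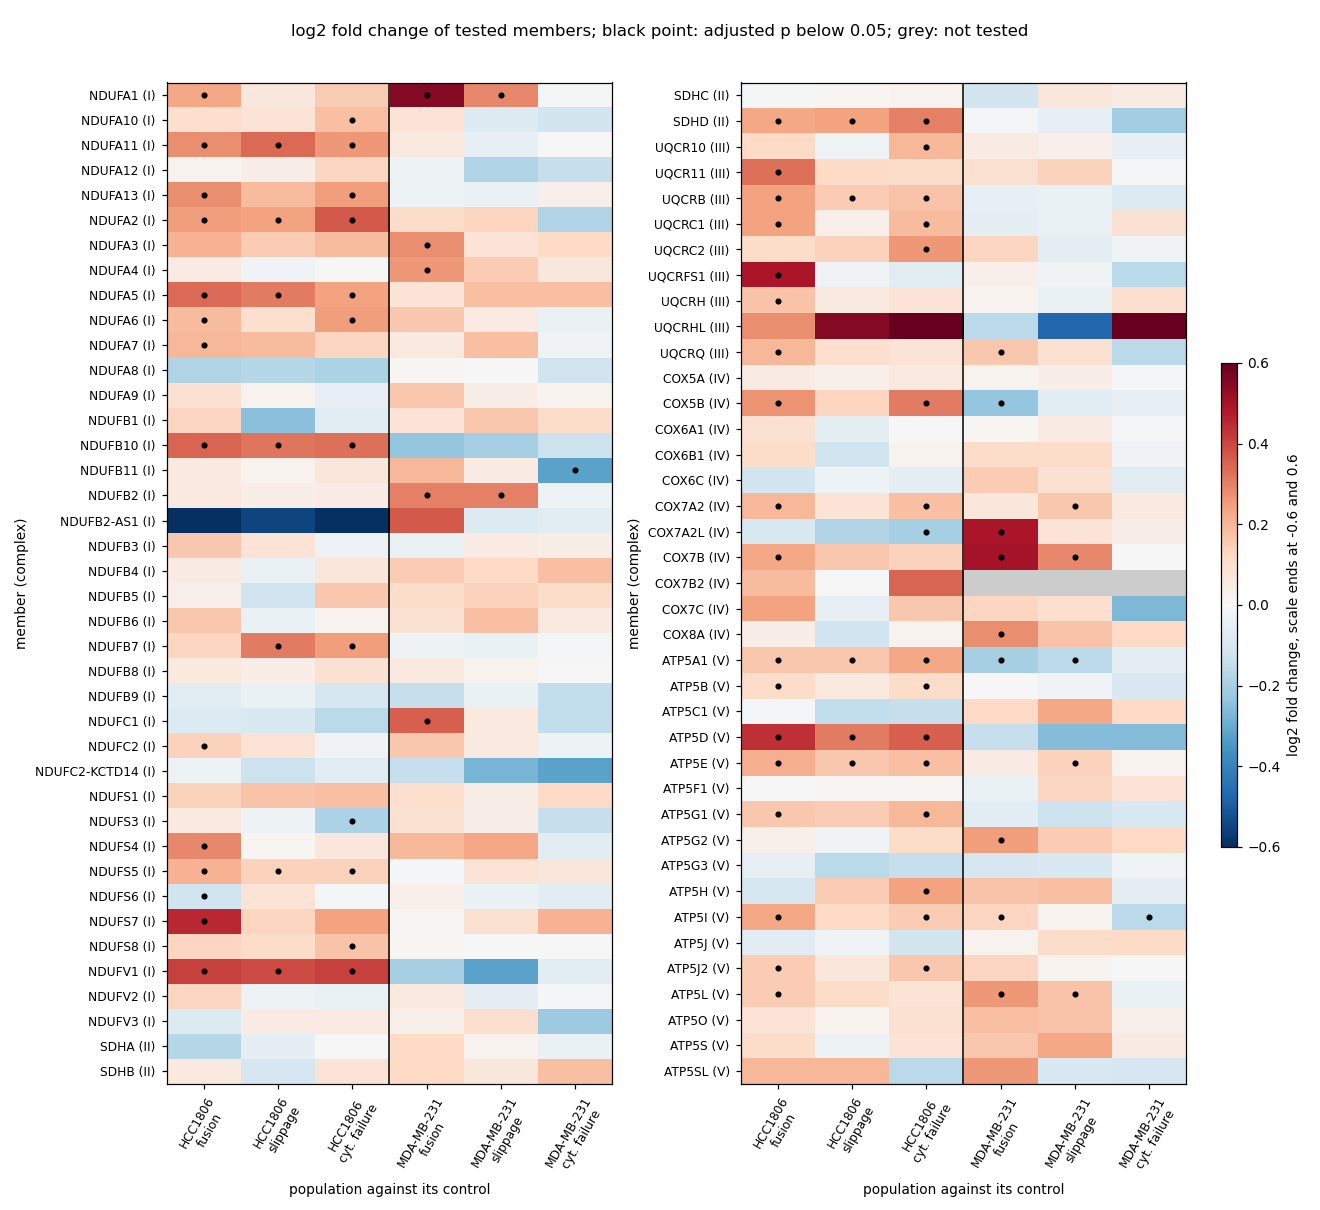
Heat map of the log2 fold change of the tested members but 1 (rows, by complex) in the 6 doubled populations against their control (columns, HCC1806 left, MDA-MB-231 right); black points mark an adjusted p below 0.05 and grey cells were not tested. The 3 HCC1806 columns are mostly on the positive side (64, 53 and 60 of 80 members), and the MDA-MB-231 cytokinesis-failure column is not (30 of 79).

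The difference between lines was tested directly, as the HCC1806 effect minus the MDA-MB-231 effect in a fit of all 24 libraries. For cytokinesis failure 13 of 80 members differed, all toward higher in HCC1806 (16.2%, background 6.53%; genes with at least 50 CPM 12.3% in either direction and 6.05% toward higher), with 27 above and 2 below 0 at an unadjusted p below 0.05 and 12 higher and 0 lower by DESeq2. NDUFA2 (0.56 ± 0.096, adjusted p = 1.04e-05), SDHD (0.51 ± 0.11, 0.000960), COX5B (0.37 ± 0.077, 0.000526), ATP5I (0.32 ± 0.062, 0.000134) and ATP5A1 (0.29 ± 0.065, 0.000932) were among them. For fusion 13 were on the side of HCC1806 and 6 on that of MDA-MB-231 (23.8%), where 12% of all genes and 22.9% of those with at least 50 CPM were called, so the share called in either direction lay near that of abundant genes. By direction, 9.63% of abundant genes were on the side of HCC1806 and 13.2% on that of MDA-MB-231, beside 13 and 6 of the 80 members. COX5B (0.49 ± 0.078, adjusted p = 1.66e-06), UQCRFS1 (0.46 ± 0.074, 2.51e-06) and ATP5A1 (0.36 ± 0.065, 2.80e-05) were more positive in HCC1806, and COX7A2L (-0.58 ± 0.12, 0.000311) and NDUFC1 (-0.44 ± 0.12, 0.0101) in MDA-MB-231. For slippage 4 and 3 members differed (8.75%, background 3.54%, abundant genes 7.71%), led by ATP5A1 (0.32 ± 0.065, adjusted p = 0.000826) and ATP5C1, the gamma subunit (-0.38 ± 0.093, 0.00663). ATP5A1 and the ring subunit gene ATP5G1 (0.22 ± 0.079, 0.27 ± 0.079 and 0.29 ± 0.078 in fusion, slippage and cytokinesis failure) were called in all 3 of these tests.

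Among themselves the doubled populations differed at 16 of 80 members in HCC1806 (20%, background 20.2%, abundant genes 33.7%) and at 18 of 79 in MDA-MB-231 (22.8%, background 25.2%, abundant genes 38.4%), shares close to those of all genes and below those of abundant ones. In HCC1806 the smallest adjusted p values were those of UQCRFS1 (4.42e-20), UQCR11 (9.02e-06), ATP5H (9.65e-05) and COX6B1 (0.000317). Fusion was higher than slippage at 10 and lower at 2 members (15%, background 9.23%, abundant genes 16.5%), and higher than cytokinesis failure at 9 and lower at 2 (13.8%, background 17.9%, abundant genes 28.9%). It had more UQCR11 than slippage (0.21 ± 0.043) and cytokinesis failure (0.22 ± 0.042), and less ATP5H, a subunit of the peripheral stalk (-0.25 ± 0.065 and -0.33 ± 0.064). ATP5H had 144, 143 and 117 CPM in fusion, against 153, 175 and 154 in slippage and 161, 176 and 173 CPM in cytokinesis failure. Slippage was lower than cytokinesis failure at 4 members and higher at none (5%, background 6.80%, abundant genes 12.7%; 4 above and 13 below at an unadjusted p below 0.05), among them UQCR10 (-0.22 ± 0.048) and COX5B (-0.18 ± 0.046).

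In MDA-MB-231 fusion and cytokinesis failure gave the most calls of the 3 pairs, among OXPHOS members as among all genes. Fusion was higher at 21 and lower at 3 of 79 members (30.4%), where 24.5% of all genes and 36.6% of abundant genes were called. The higher ones included NDUFA1 (0.55 ± 0.079), NDUFC1 (0.52 ± 0.085), NDUFB11 (0.51 ± 0.074), COX7B (0.50 ± 0.065), UQCRQ (0.32 ± 0.048), ATP5I (0.29 ± 0.045) and ATP5L (0.29 ± 0.050). NDUFB11 had 168, 147 and 155 CPM in fusion, against 101, 113 and 113 CPM in cytokinesis failure, with no overlap. Slippage was higher than cytokinesis failure at 10 members (12.7%, background 3.18%, abundant genes 5.66%), among them NDUFB11 (0.37 ± 0.075, adjusted p = 0.00195), NDUFB2 (0.33 ± 0.065, 0.00117) and UQCRQ (0.25 ± 0.048, 0.00123), and lower at none, where 3 were lower at an unadjusted p below 0.05. Both libraries that stood apart belong to these populations, and slippage against cytokinesis failure was not tested without them. Fusion against slippage gave 5 higher and 1 lower (7.59%, background 17.1%, abundant genes 26.7%), with COX7A2L at 0.41 ± 0.093.

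Some members moved with the genes around them. For each member the median fold change of tested genes within 5 Mb to each side was taken, where there were at least 10. In MDA-MB-231 fusion COX7B (0.50) had 13 such neighbours with a median of 0.49, NDUFA1 (0.55) had 25 with 0.46, COX7A2L (0.49) had 37 with 0.30 and NDUFC1 (0.36) had 18 with 0.22. ATP5A1 (-0.20) and COX5B (-0.23), which fell there, had neighbour medians of -0.19 and -0.16. NDUFB2 (0.30), COX8A (0.28) and ATP5L (0.26) differed from their neighbours, at 0.04, 0.04 and 0.05. In MDA-MB-231 slippage ATP5A1 (-0.16), COX7B (0.29) and NDUFA1 (0.29) had neighbour medians of -0.00, 0.13 and 0.16. In HCC1806 fusion UQCRFS1 rose by 0.49 where its 21 neighbours had a median of -0.29, and NDUFV1 (0.41), NDUFB10 (0.35) and COX5B (0.27) had neighbour medians of 0.09, 0.13 and 0.01. COX7B (0.23), NDUFA1 (0.23) and ATP5A1 (0.16) had neighbour medians of -0.15, 0.01 and -0.04 in HCC1806 fusion. NDUFS6 and NDUFS3, which fell in HCC1806 fusion and cytokinesis failure, had neighbour medians of -0.13 and -0.16 there. The genome sequencing of these populations was not analysed here, and the part of copy number in any of these values was not tested.

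**Figure D5:**
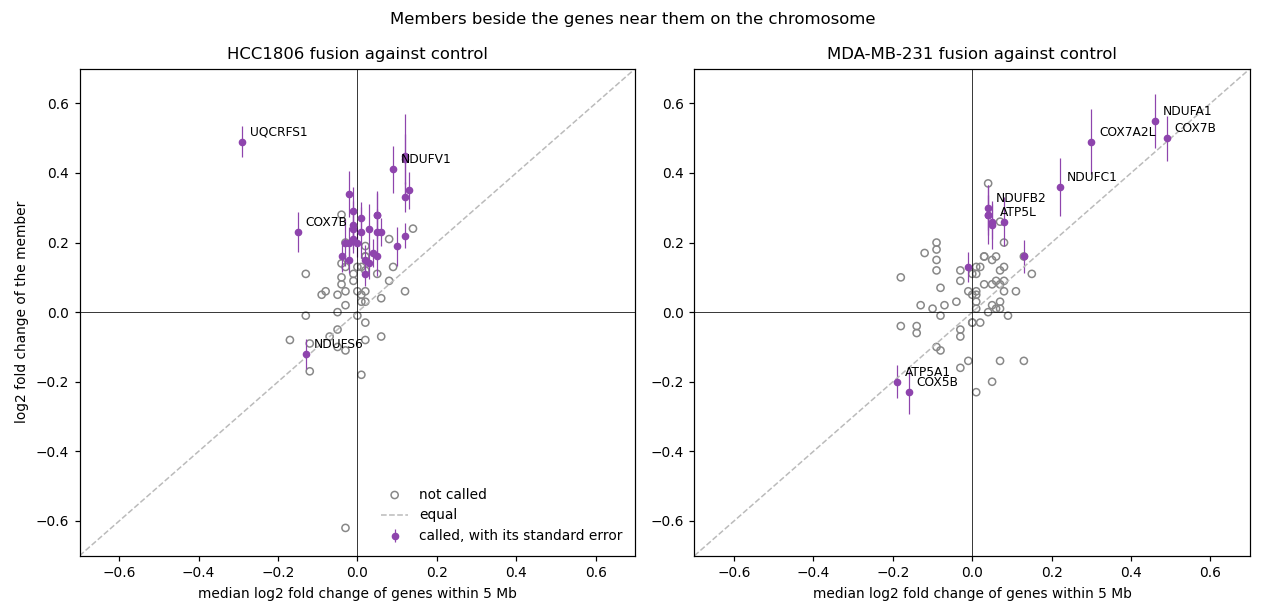
Log2 fold change of each member against the median of the tested genes within 5 Mb of it, in HCC1806 fusion and MDA-MB-231 fusion; each point is a member (1 is not drawn), filled where called, with its standard error as a vertical bar. COX7B, NDUFA1 and ATP5A1 of MDA-MB-231 lie near equality, whereas UQCRFS1 of HCC1806 lies far above its neighbours (0.49 against -0.29).

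The parental control populations of the lines differed from each other in these genes, as in most of the transcriptome. In HCC1806 against MDA-MB-231 controls, 32 of 80 members were higher and 24 lower (70.0%), where 76.2% of 12563 genes and 83.9% of those with at least 50 CPM were called. Levels given with an SD in this paragraph were scaled over all 24 libraries together. They therefore differ from the levels above, which were scaled within each line. NDUFB9, a membrane-arm subunit of complex I on chromosome 8, had 635 ± 25.7 CPM in HCC1806 and 87.8 ± 4.74 CPM in MDA-MB-231 (SD, n = 3 each), a log2 difference of 2.85 ± 0.056 (adjusted p = 1.16e-59), with a median of 1.21 among 31 neighbours. NDUFA4 had 534 ± 16.2 and 203 ± 7.79 CPM (1.40 ± 0.058, adjusted p = 4.25e-30, neighbours 0.82), and UQCRC2 148 ± 12 and 56.0 ± 1.84 CPM (1.40 ± 0.080, neighbours 0.04), in HCC1806 and MDA-MB-231. Lower in HCC1806 were NDUFB1, at 91 ± 1.62 CPM in HCC1806 and 281 ± 12 CPM in MDA-MB-231 (-1.62 ± 0.11), UQCRC1 (-0.98, neighbours -1.37), ATP5A1 (-0.75, neighbours -0.53) and UQCRB (-0.71). NDUFB9 did not pass the test in any doubled population, with estimates from -0.15 to -0.04. COX7B2, a testis-enriched form of COX7B (chr4:46734827-46909245), gave 64 to 130 counts in each HCC1806 library and 0 in all 12 MDA-MB-231 libraries. Its 236 counts in the 3 HCC1806 controls (22.4 CPM), set against a floor of 3 counts over the 3 MDA-MB-231 controls (0.29 CPM), make it at least 77.2-fold higher in HCC1806.

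Genes that work with the members were counted in the same comparisons, where the share of all genes called was 10.9%, 3.33% and 17% in HCC1806 and 17.4%, 6.18% and 4.64% in MDA-MB-231 (fusion, slippage and cytokinesis failure). Of 51 assembly factors tested in HCC1806, 4 rose in fusion, among them the copper chaperone of complex IV COX17 (0.30 ± 0.064, adjusted p = 0.000357) and ACN9 (0.51 ± 0.17, adjusted p = 0.0310), 2 rose in slippage (COX20 at 0.14 and ATPAF2 at 0.42), and 2 rose and 2 fell in cytokinesis failure. In MDA-MB-231 fusion 3 of 52 rose and 3 fell, with the complex I iron-sulfur factor NUBPL at -0.65 ± 0.15 (adjusted p = 0.00139), NDUFAF5 at -0.53 ± 0.16 and COA1 at 0.32 ± 0.091. None was called by edgeR or DESeq2 in MDA-MB-231 slippage (4 higher and 3 lower at an unadjusted p below 0.05) or cytokinesis failure (3 and 7). The median of this list was 0.04, 0.04 and 0.01 in the HCC1806 and 0.03, 0.04 and -0.04 in the MDA-MB-231 populations, in the order fusion, slippage and cytokinesis failure.

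Of 14 enzymes of the citric acid cycle, 4 rose in MDA-MB-231 fusion, where 16.2% of genes with at least 50 CPM rose, led by the succinyl-CoA ligase subunits SUCLG2 (0.43 ± 0.085, adjusted p = 0.000217) and SUCLG1 (0.37 ± 0.074, adjusted p = 0.000266). In MDA-MB-231 slippage 1 rose, the mitochondrial isocitrate dehydrogenase IDH2 (0.83 ± 0.19, adjusted p = 0.00514). HCC1806 fusion had 1 higher (IDH3G, 0.42 ± 0.11) and 1 lower (SUCLA2, -0.39 ± 0.097), and cytokinesis failure 1 higher (DLD, 0.20 ± 0.072) and 1 lower (IDH3A, -0.23 ± 0.075). HCC1806 slippage and MDA-MB-231 cytokinesis failure had none by edgeR or DESeq2, with 1 higher and 1 lower, and 1 higher and 3 lower, at an unadjusted p below 0.05.

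Among regulators of mitochondrial gene expression, TFAM, which packages mitochondrial DNA and takes part in starting its transcription, fell in HCC1806 fusion (-0.17 ± 0.052, adjusted p = 0.0194) and cytokinesis failure (-0.27 ± 0.051, adjusted p = 4.33e-05), where the coactivator PPRC1 fell too (-0.43 ± 0.091, adjusted p = 0.000279). In MDA-MB-231 fusion PPRC1 rose (0.30 ± 0.11) and the mitochondrial RNA polymerase POLRMT fell (-0.36 ± 0.11). No other regulator of the 11 and 12 tested was called in these 3 comparisons, and none in HCC1806 slippage or MDA-MB-231 slippage and cytokinesis failure by edgeR or DESeq2 (0 higher and 1 lower, 1 and 3, and 1 and 1 at an unadjusted p below 0.05). Cytochrome c (CYCS), the carrier between complexes III and IV, fell in HCC1806 fusion (-0.16 ± 0.037) and cytokinesis failure (-0.15 ± 0.037) and in MDA-MB-231 slippage (-0.20 ± 0.053) and cytokinesis failure (-0.18 ± 0.053). The complex III subunit CYC1 fell in the same MDA-MB-231 populations (-0.20 ± 0.056 and -0.27 ± 0.057). COX4I2, a second form of COX4, rose in HCC1806 cytokinesis failure (1.17 ± 0.28, adjusted p = 0.00144), and NDUFAB1 fell there (-0.20 ± 0.071, adjusted p = 0.0425).

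Ribosomal protein genes, also abundant and short, were counted the same way. Of genes with at least 50 CPM, 10.5% rose and 9.51% fell in HCC1806 fusion. The shares were 3.52% and 2.76% in slippage and 12.5% and 14.5% in cytokinesis failure. In MDA-MB-231 they were 16.2% and 10.9% in fusion, 5.21% and 5.78% in slippage, and 4.34% and 4.11% in cytokinesis failure. Of 82 cytosolic ribosomal protein genes, 54 rose and 1 fell in HCC1806 fusion, 8 rose in slippage, and 13 rose and 4 fell in cytokinesis failure. In MDA-MB-231 43 rose and 1 fell in fusion, 4 rose and 4 fell in slippage, and 8 fell in cytokinesis failure. Of 76 mitochondrial ribosomal protein genes, 9 rose and 3 fell in HCC1806 fusion, and 1 rose and 6 fell in cytokinesis failure, where 26 of 80 OXPHOS members rose. The other comparisons are not given here for the mitochondrial list. The median fold change of the cytosolic ribosomal protein genes was 0.14 in HCC1806 fusion and 0.04 in cytokinesis failure, beside 0.13 and 0.09 for the OXPHOS members, and the difference between these lists was not tested.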

How the data were processed

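TAGseq libraries of 8 groups of 3 replicates were analysed. STAR and Salmon are named without versions and GRCh38 as the build, per the submitters' processing notes; annotation, strand setting and handling of duplicates are not given in the sources used here. The authors deposited estimated counts per gene, not whole in 4.41% of values (tolerance 1e-06), and TPM in a second deposited table. All columns matched the sample names in the labels.

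Estimated counts were rounded and tested by edgeR 4.0.16 under R 4.3.3 (quasi-likelihood F test with robust dispersion, TMM scaling and its filterByExpr filter), with each line fitted on its 12 libraries and all 24 fitted together for line differences and the parental comparison. This tested 11467 genes in HCC1806, 11424 in MDA-MB-231 and 12563 together, with biological coefficients of variation of 3.88%, 5.28% and 4.67%. P-values were adjusted by Benjamini-Hochberg over all genes tested, with a threshold of 0.05. Standard errors are the fold change over the root of F. Levels are TMM-scaled CPM. The result of 1 member is not reported here, though counts, sums and medians include it. P-values measure the spread between replicates of 1 population per route and line, and counts carry counting error besides. The scripts were checked on simulated counts.

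Members and lists were chosen with earlier results of these data known, so no list was tested as a set and no p was adjusted over a list. Named were up to 2 members per complex, direction and population, and 4 per direction for line differences, tests among doubled populations and the parental comparison, by smallest adjusted p; members called in all 3 populations of a line or in both lines; fixed isoforms and the inhibitor; and up to 2 genes per list. Further genes called in a comparison were named as examples after their values were seen. Added after the data were seen were medians of neighbours (5 Mb to each side, at least 10 genes), the background of genes with at least 50 CPM, ATP synthase genes under other names, and sums of subunit genes alone with NDUFA4 in complex IV. Alternatives were DESeq2 1.42.0, RLE factors, TMM without members and ribosomal proteins, a stricter or absent filter, limma 3.58.1 on log2 of TPM with 1 or 0.1 added, fits that hold just the 6 libraries of a comparison, omission of each library in turn or of both noisier ones, and a block for replicate number. None of these alternatives was run for the pairwise comparisons of doubled populations. Promoters, positions and current symbols came from RefSeq on GRCh38.p14.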

Additional observations from a re-analysis of the deposited data

Results flagged for a closer look

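The members below had a change against control that differed between the lines by the test of the difference itself (HCC1806 effect minus MDA-MB-231 effect, log2, edgeR, adjusted p below 0.05 over all genes tested). Causes were not tested.

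After fusion, effects more positive in HCC1806 were in complex I those of NDUFS5 (0.21), NDUFB10 (0.58), NDUFA13 (0.31) and NDUFV1 (0.60). In complex III they were UQCRFS1 (0.46), UQCRB (0.28), UQCR11 (0.24) and UQCRC1 (0.30), in complex IV COX5B (0.49), and in complex V ATP5A1 (0.36), ATP5E (0.16) and ATP5G1 (0.22). More positive in MDA-MB-231 were NDUFC1 (-0.44), NDUFA1 (-0.32), COX7A2L (-0.58), COX8A (-0.25), COX7B (-0.27) and COX6C (-0.27). Of the members named, ATP5A1, COX5B, COX7A2L and UQCRFS1 had calls that held with any single library left out and under every other setting tried.

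After slippage the differences were those of ATP5A1 (0.32), ATP5G1 (0.27), NDUFV1 (0.71) and NDUFA11 (0.39), more positive in HCC1806, and ATP5C1 (-0.38), COX8A (-0.29) and COX6B1 (-0.23), more positive in MDA-MB-231. The ATP5A1 call alone held under everything tried. NDUFV1 rests partly on replicate 3 of MDA-MB-231 slippage, which had 53.2 CPM beside 86.3 and 79.4 CPM in the other two.

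After cytokinesis failure all 13 were more positive in HCC1806: NDUFA2 (0.56), NDUFB11 (0.39), NDUFA6 (0.29), SDHD (0.51), UQCRQ (0.25), UQCRB (0.25), UQCR10 (0.25), COX5B (0.37), ATP5I (0.32), ATP5A1 (0.29), ATP5G1 (0.29), ATP5B (0.20) and ATP5E (0.17). The calls of ATP5A1, ATP5I, COX5B, NDUFA2, NDUFB11, SDHD and UQCRB held under everything tried.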

How the results depend on the processing

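Members called moved by over 1.5 times in these cases. For HCC1806 fusion (32) DESeq2 gave 20, log2(TPM + 1) 14 and log2(TPM + 0.1) 15; for HCC1806 slippage (12) they gave 6, 2 and 2; among doubled HCC1806 populations (16) DESeq2 gave 8. For MDA-MB-231 fusion (15) both TPM scales gave 9 (3 higher, 6 lower), and the fits without both noisier libraries and of 6 libraries gave 24. For MDA-MB-231 slippage (7) both TPM scales gave 1. For MDA-MB-231 cytokinesis failure (2) both TPM scales gave 0 (limma), and the fit without both noisier libraries 5; among doubled MDA-MB-231 populations (18) that fit gave 29. For the line difference of slippage (7), log2(TPM + 1) gave 3, log2(TPM + 0.1) 2, the replicate block 4 and the fit without the noisier libraries 11. On log2(TPM + 1) the parental split was 21 higher and 33 lower and the line difference of fusion 17 and 1, and the median of all genes shifted to -0.105 in MDA-MB-231 fusion and -0.117 in the parental comparison. ATP5F1 and UQCRH reversed there, to -0.02 and -0.04 on both TPM scales, against 0.14 and 0.11. The causes were not tested.

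Leaving out each library gave 23 to 32, 7 to 12 and 20 to 28 for HCC1806 fusion, slippage and cytokinesis failure, and 12 to 16 among them. MDA-MB-231 gave 11 to 19, 2 to 12, 0 to 4 and 14 to 26 in that order. Line differences gave 11 to 22, 2 to 9 and 10 to 18, and the parental comparison 52 to 56. The count moved by over 1.5 times for HCC1806 slippage without control 1 or slippage 1 (7 each). For MDA-MB-231 slippage it did without control 1 or 2 (3 each), control 3 (2), slippage 2 (4), slippage 3 (3) or cytokinesis failure 1 (12), and for MDA-MB-231 cytokinesis failure without control 1 or 2 (1 each), control 3 (0), slippage 3 (4) or cytokinesis failure 2 (1). For the line difference of fusion it did without HCC1806 fusion 1 or MDA-MB-231 fusion 1 (11 each) or MDA-MB-231 control 3 (12). For that of slippage, without HCC1806 control 1 or slippage 2 (3 each), HCC1806 control 2 (2), HCC1806 slippage 3 or cytokinesis failure 1 (4 each), MDA-MB-231 control 1 or 2 (4 each), and MDA-MB-231 control 3 or slippage 3 (3 each).

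Replicate numbers gave no sign of pairing. Deviations of same-numbered libraries correlated at -0.097 to 0.077 in HCC1806 and -0.191 to 0.0884 in MDA-MB-231. Those of different-numbered libraries correlated at -0.157 to 0.201 and -0.109 to 0.166. Such ranges cannot exclude a batch shared between groups. The replicate block gave 30, 11, 28 and 15 in HCC1806, 15, 6, 2 and 17 in MDA-MB-231, 15, 4 and 13 for the line differences and 52 for the parental comparison. Of 5872 values of called members under all alternatives, 5186 kept direction and side of the threshold, 682 lost the call and 4 reversed.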
